A study of Mus musculus with 3 samples.

Results

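The genes described here mark amacrine cells, the interneurons of the inner retina, by their transmitter or by their subtype. They are Gad1, Gad2, Slc6a9, Calb2, Npy and Dab1, and the members were every probe set whose platform annotation gives exactly 1 of these 6 symbols. This rule found 7 of the 12488 probe sets on the array, 2 for Dab1 and 1 for each other gene, and 6 of 8251 named genes. The values of these genes were known when they were picked, so their signals are given as a description, with no test. Signals came from Affymetrix U74Av2 arrays, 1 array per sample, in the linear intensity units of the deposited table. All 3 samples were wild-type neural retina at postnatal day 10, from mice of mixed 129/SvEv and C57BL/6 background that were littermates of Rp1-/- animals. Each sample pooled the retinas of 3 to 4 mice, and the pools are numbered 1 to 3 only to name them. The titles of pools 2 and 3 contain the name Rp1, while all 3 descriptions call the mice wild type, and the descriptions were followed. With 1 group there is no contrast between conditions, and what the data give is the level of each gene in every pool and its spread. The labels do not say whether pools shared mice, so this spread may be partly technical.

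Amacrine cells receive input from bipolar cells and inhibit bipolar, ganglion and other amacrine cells, and nearly all of them release either GABA or glycine. GABA is made from glutamate by the glutamate decarboxylases Gad1 and Gad2 and is loaded into vesicles by Slc32a1, whereas glycinergic amacrine cells take up glycine through the transporter Slc6a9. Calb2 (calretinin, a calcium-binding protein), Npy (a peptide transmitter) and Dab1 (the adaptor of the Reelin receptors, known from AII amacrine cells) label subtypes. At this age mouse amacrine cells have been born and are refining their synapses, shortly before the eyes open.

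The promoters of both decarboxylase genes are shown because their enzymes catalyse the same step. Those of Npy and Dab1 are shown because the signal of Npy and of the brighter Dab1 probe set was highest in pool 1. Slc6a9 was also highest in pool 1, and its promoters are not printed. Each line holds the 250 bases before an annotated gene start, from the RefSeq promoter table of build GRCm38.p6, all on the plus strand and written 5′ to 3′. Of the 6 genes, 5 matched this table, and Calb2 did not. Dab1 has 2 annotated starts there. Capitals mark matches, on either strand, to 4 motifs, which were the E box CANNTG, bound by basic helix-loop-helix factors, the GC box GGGCGG, the TATA box TATAAA and the cAMP response element TGACGTCA.
Gad1, chr2:70561879-70562128: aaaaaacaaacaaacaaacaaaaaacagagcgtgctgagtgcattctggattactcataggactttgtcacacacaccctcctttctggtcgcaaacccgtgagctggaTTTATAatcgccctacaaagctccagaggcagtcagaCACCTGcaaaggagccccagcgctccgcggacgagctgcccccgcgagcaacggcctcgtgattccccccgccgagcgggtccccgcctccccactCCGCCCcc
Gad2, chr2:22622077-22622326: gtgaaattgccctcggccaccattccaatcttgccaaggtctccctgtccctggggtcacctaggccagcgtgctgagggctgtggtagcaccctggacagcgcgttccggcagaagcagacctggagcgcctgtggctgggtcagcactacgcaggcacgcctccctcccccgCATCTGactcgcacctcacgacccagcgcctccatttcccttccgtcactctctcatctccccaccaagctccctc
Npy, chr6:49822460-49822709: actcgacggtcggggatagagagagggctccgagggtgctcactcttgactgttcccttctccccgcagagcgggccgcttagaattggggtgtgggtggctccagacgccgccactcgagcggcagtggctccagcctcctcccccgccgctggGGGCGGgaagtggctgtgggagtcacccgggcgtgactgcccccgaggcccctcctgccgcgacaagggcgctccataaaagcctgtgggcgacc
Dab1, chr4:103619250-103619499: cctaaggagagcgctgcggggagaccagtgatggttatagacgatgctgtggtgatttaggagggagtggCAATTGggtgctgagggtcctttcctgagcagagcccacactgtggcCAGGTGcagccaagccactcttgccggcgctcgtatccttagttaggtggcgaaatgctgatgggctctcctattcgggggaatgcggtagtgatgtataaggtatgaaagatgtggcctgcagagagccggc
Dab1, chr4:104367288-104367537: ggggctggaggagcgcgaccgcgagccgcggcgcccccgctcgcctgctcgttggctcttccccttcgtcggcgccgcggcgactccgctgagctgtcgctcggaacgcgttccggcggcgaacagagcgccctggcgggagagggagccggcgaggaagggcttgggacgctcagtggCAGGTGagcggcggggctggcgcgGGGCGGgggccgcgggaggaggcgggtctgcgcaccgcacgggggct

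Gad1 held 1 E box, 1 GC box and 1 TATA box. The GC box, at position -8 from the gene start, and the TATA box, at position -141, were on the minus strand. Gad2 held 1 E box and no match to the other motifs. Npy held 1 GC box at position -95 and no E box. The upstream Dab1 window held 2 E boxes, and the downstream one held 1 E box and 1 GC box. No cAMP response element and no overlap between matches occurred in these windows. Over all 32851 windows of the same length, 66.2% held an E box, 32.7% a GC box, 12.4% a TATA box and 1.55% a cAMP response element. The GC content was 58.0% for Gad1, 64.0% for Gad2, 69.2% for Npy and 56.4% and 78.0% for the Dab1 windows, against a median of 52.4% over all windows. A match describes the letters only.

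Of the 7 probe sets, 4 were above background on all 3 arrays, those of Gad1, Slc6a9, Calb2 and Npy. The background limit was the 90th percentile of 81 probe sets of genes typical of other tissues, a signal of 398.9 in pool 1, 496.2 in pool 2 and 330.1 in pool 3. Over the array 29.2% of 12422 probe sets were above it in every pool, and 55.4% were above it in none. The Dab1 probe set 102972_s_at exceeded it in pool 1 alone, and Gad2 and the Dab1 probe set 161291_at did so in none. A signal under the limit is not above background and does not show that the gene was silent. Signals of different probe sets do not measure relative transcript amounts, so genes are compared by how each varied between pools.

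**Figure D1:**
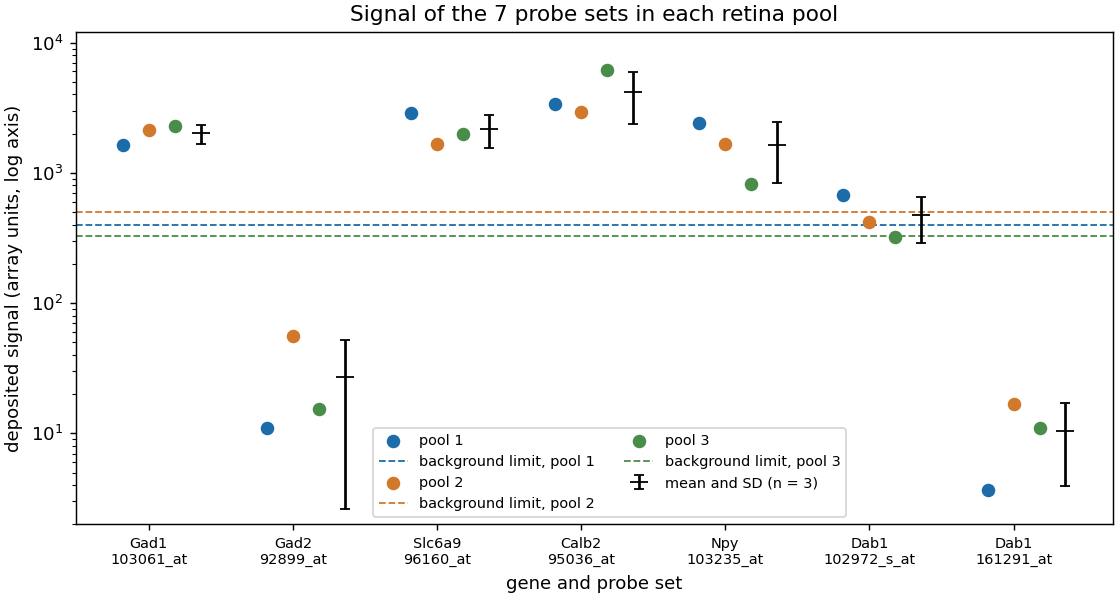
Deposited signal (log axis) of the 7 probe sets in pools 1, 2 and 3, with the mean and SD over the 3 pools in black and the background limit of each array as a dashed line of the pool's colour. Gad1, Slc6a9, Calb2 and Npy lie above all limits, Gad2 and the Dab1 set 161291_at far below them, and the Dab1 set 102972_s_at across them.

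Gad1, the decarboxylase found throughout the cell, had the narrowest range of these genes. Its signal was 1628.8 in pool 1, 2116.5 in pool 2 and 2270.1 in pool 3, or 2005 ± 335 (SD, n = 3). Pool 1 was lowest and the other 2 pools were close together, and the range from lowest to highest was 1.39-fold, or 0.48 on the log2 scale. Without pool 1 it was 0.10 on that scale. The median range of the 3627 probe sets above background on all arrays was 1.37-fold, and 47.2% of them had a larger range than Gad1.

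Gad2, the decarboxylase held at synaptic terminals, read 10.9, 55.6 and 15.3 in pools 1, 2 and 3. These values were 0.027, 0.11 and 0.046 of the background limit. They also lay below the median signal of the other-tissue probe sets, which was 89.0, 87.3 and 88.7. The 5.10-fold range of Gad2 therefore lies wholly under background, and no order of the pools is read from it.

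Slc6a9, the glycine transporter, differed from Gad1 mainly in pool 1. Its signals were 2860.3, 1649.9 and 1985.0 in pools 1, 2 and 3, or 2165 ± 625 (SD, n = 3), and was highest where Gad1 was lowest. Its range was 1.73-fold, and 15.6% of probe sets above background had a larger one. Without pool 1 it was 0.27 on the log2 scale, against 0.79 with it. The ratio of Gad1 to Slc6a9 signal within an array was 0.57, 1.28 and 1.14 in pools 1, 2 and 3. Such a ratio does not depend on a scaling that multiplies the whole array by 1 factor, and here only its change between pools has a meaning. It was 2.25-fold lower in pool 1 than in pool 2.

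Calb2 stood out by a high signal in pool 3. Pool 1 gave 3356.0, pool 2 gave 2922.3 and pool 3 gave 6148.7, or 4142 ± 1751 (SD, n = 3). The first 2 were near each other, and pool 3 was 1.83-fold above pool 1 and 2.10-fold above pool 2. Without pool 3 the range was 0.20 on the log2 scale, against 1.07 with it, so the spread of Calb2 rests on that pool. The range was under 2-fold after quantile normalization, at 0.92 on the log2 scale. A larger range was seen in 5.29% of probe sets above background on all arrays.

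Npy had the widest range of the genes above background. Pool 1 gave 2427.4, pool 2 gave 1661.6 and pool 3 gave 821.6, or 1637 ± 803 (SD, n = 3), a range of 2.95-fold. Pool 1 was 1.46-fold above pool 2, and pool 2 was 2.02-fold above pool 3. With 1 array per pool, no error within a pool was measured. The lowest signal still stood at 2.49 times its array's background limit. A larger range was seen in 1.05% of the probe sets above background. Without pool 3 the range was 0.55 on the log2 scale, against 1.56 with it.

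Of the Dab1 probe sets, 1 was measured above background, and in 1 pool. The set 102972_s_at, whose suffix marks a set able to match more than 1 transcript, read 673.9, 421.4 and 318.8 in pools 1, 2 and 3, or 471.4 ± 182.7 (SD, n = 3). Pool 1 was highest and was the one pool above background. Its signal was 1.36 times the background limit of pool 2 and 2.04 times that of pool 3. With 50 added to every signal before log2, the range was 0.97 on the log2 scale, against 1.08 without it. Pools 2 and 3 were both under the limit and have no order between them. The set 161291_at read 3.7, 16.8 and 11.0 and was under background throughout, so it gives no order of the pools. With a limit taken from the 63 other-tissue probe sets of plain _at type, an alternative chosen after seeing the data, the limits were 309.1, 316.7 and 294.6 and Dab1 102972_s_at was above background in every pool.

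Among the 4 probe sets above background on all arrays, 2 had a range over 2-fold, Calb2 and Npy, against 6.92% of 3627 probe sets, and nothing is read from this share because the genes were picked with their values known. The count was 1 after quantile normalization and 1 relative to the other amacrine markers, where Calb2 fell short of a 2-fold range. The genes were opposite in pool 3, whereas both read lower in pool 2 than in pool 1. Calb2 was highest in pool 3, where 30.2% of the 3627 were highest (33.3% were in pool 1 and 36.5% in pool 2), and Npy was lowest there. The order of Npy, with pool 1 above pool 2 above pool 3, was that of 17.6% of the 3627. Over all of these probe sets 2.45% combined a range over 2-fold with a peak in pool 3, and 2.92% combined it with a low in pool 3.

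**Figure D2:**
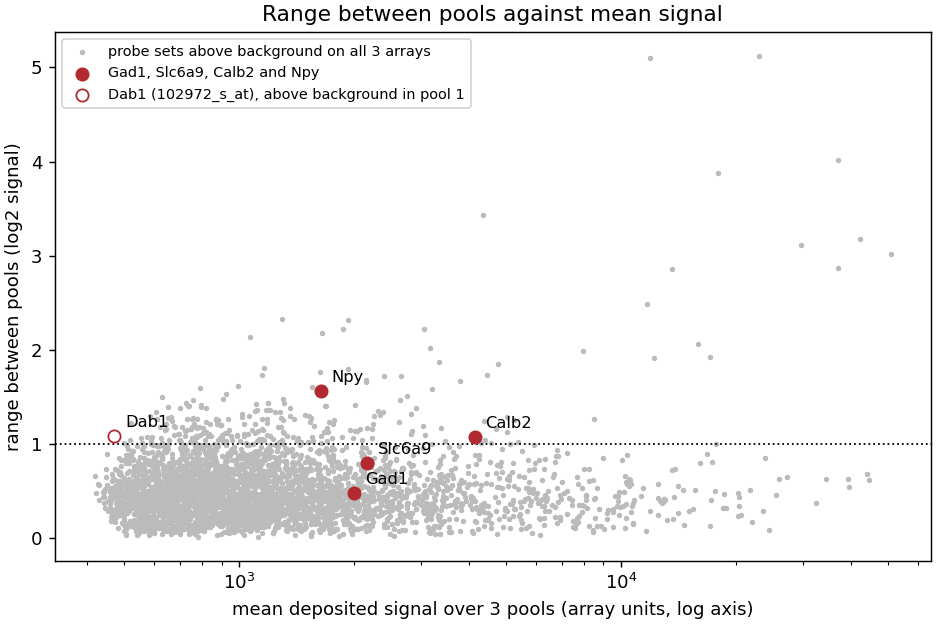
Range between pools (log2 signal) against the mean deposited signal over 3 pools (log axis) for the 3627 probe sets above background on all arrays, in grey, with Gad1, Slc6a9, Calb2 and Npy in filled red and the Dab1 set 102972_s_at, above background in pool 1 only, as an open circle. The dotted line is a 2-fold range. Calb2 and Npy lie above it and Gad1 and Slc6a9 below it.

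Ratios between genes within an array also diverged. They are free of any scaling by 1 factor per array, but not of quantile normalization. The ratio of Calb2 to Npy signal was 1.38, 1.76 and 7.48 in pools 1, 2 and 3, which spans 5.41-fold. The ratio of Gad1 to Npy was 0.67, 1.27 and 2.76, a 4.12-fold range with the same order of pools. The ratio of Calb2 to Gad1 was 2.06, 1.38 and 2.71, a 1.96-fold range and the narrowest of the 6 pairs of genes above background on all arrays. The 6 ratios share genes and are not independent.

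**Figure D3:**
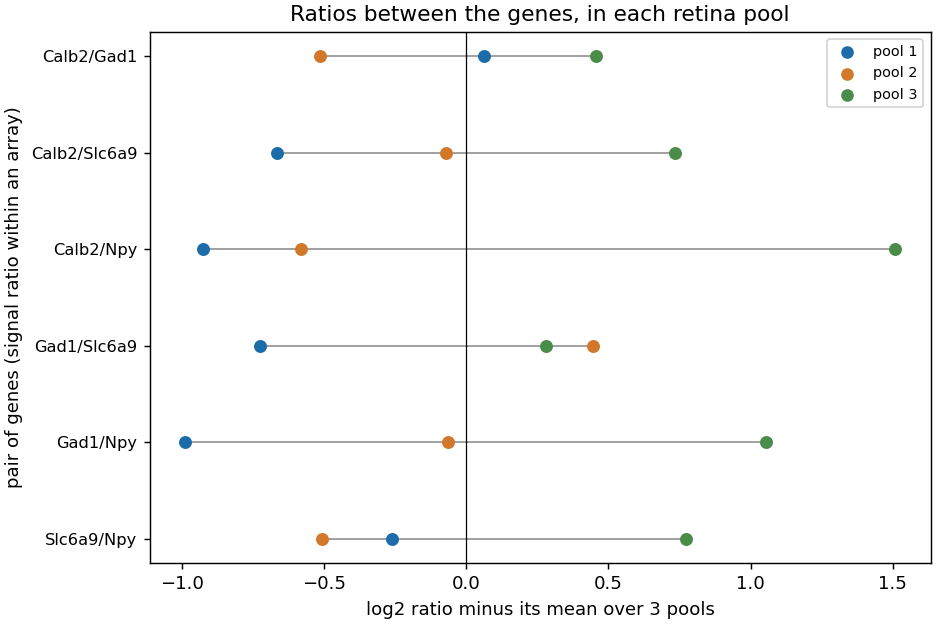
Log2 ratio of the deposited signals of 2 genes within an array, minus its mean over the 3 pools, for the 6 pairs of Calb2, Gad1, Slc6a9 and Npy, with 1 point per pool. The ratio of Calb2 to Npy spreads most, with pool 3 far to the right, and that of Calb2 to Gad1 spreads least.

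Of 12 marker genes of amacrine cells, 10 were measured. Above background on all arrays were 6, namely Gad1, Slc6a9, Calb2, Slc32a1, Pax6 and Tfap2b, and Gad2 alone was above it on none. Of the 10, 4 are genes described here, and 3 of the other 6 markers passed the limit on every array and 3 on some. Over all named genes 35.8% were above background on all arrays. In whole retina these counts cannot show which cells a signal came from, and the genes described here are no check of themselves. These other 6 markers had a summed signal of 4847, 5299 and 5678 in pools 1, 2 and 3, which spans 1.17-fold. The rise from pool 1 to pool 3 rests mostly on Slc32a1, at 1191.2, 1427.4 and 1988.0. Pax6 and Th were also higher in pool 3 than in pool 1, and Tfap2a, Tfap2b and Stx1a were lower. Set against that sum, Gad1 stood at 0.34, 0.40 and 0.40 in pools 1, 2 and 3, a range of 1.19-fold. Calb2 stood at 0.69, 0.55 and 1.08, a range of 1.96-fold. Npy stood at 0.50, 0.31 and 0.14, a range of 3.46-fold, which was wider than that of its signal. In a bulk retina, fewer cells of a type and less RNA per cell cannot be told apart.

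Markers of other cell types also differed between these pools. Calb2 is known from ganglion cells as well as amacrine cells, and the 9 measured ganglion cell markers, 6 of them above background on all arrays and 3 on some, had a summed signal of 10091, 9773 and 10717 in pools 1, 2 and 3. The 8 rod markers, all above background, summed to 58253, 64428 and 90479. The 6 Müller glia markers, 5 of them above background on all arrays, summed to 13818, 13214 and 19335. The 10 lens markers, 7 of them above background on all arrays, summed to 163219, 26877 and 344297. The 5 measured horizontal cell markers, none above background on all arrays, summed to 1532.5, 1330.0 and 1680.3. All of these sums were highest in pool 3, like Calb2, and those of ganglion cells, horizontal cells, Müller glia and lens were lowest in pool 2, also like Calb2. The summed signal of all 8251 named genes had this order too, at 6510765, 6145498 and 6877988. As a percentage of the summed signal of the array's probe sets without controls, rod markers made up 0.68%, 0.79% and 1.00%, Müller glia markers 0.161%, 0.161% and 0.214%, and lens markers 1.90%, 0.33% and 3.81%, so these stayed highest in pool 3. Ganglion cell markers made up 0.118%, 0.119% and 0.119% and were nearly level as a sum, and horizontal cell markers 0.0179%, 0.0162% and 0.0186%. Single ganglion cell markers went different ways. Thy1, Nefl, Nefm, Nefh and Sncg were highest in pool 3, with Nefl at 599.3, 437.0 and 1041.5. Gap43 and Isl1 were highest in pool 2 and lowest in pool 3, with Isl1 at 1516.0, 1680.7 and 707.4. Rbpms and Stmn2 were highest in pool 1. For the Actb control, 3′ signal over 5′ signal was 1.20, 1.44 and 1.69, again highest in pool 3, while for Gapdh it was 0.95, 0.88 and 0.93. The part of these differences in the signals of Calb2 and Npy was not tested.

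The pathways around these genes were covered by 10 lists with 114 genes, of which 85 had a named probe set. Above background on all arrays were 27, or 31.8%, beside the 35.8% of all named genes, and 45 were above it on none. With the 6 genes left out, 23 of 79 were above background on all arrays. Of the 27, 3 had a range over 2-fold, namely Calb2, Npy and Isl1, against 6.87% of all named genes above background. Calb2 and Npy were picked with their values known, so nothing is read from this share. Among the 23 genes that are not members, Isl1 alone had such a range.

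GABA genes were measured in part. Besides Gad1, the vesicular transporter Slc32a1, which fills vesicles with GABA or glycine, was above background at 1191.2, 1427.4 and 1988.0 in pools 1, 2 and 3, with the same order of pools as Gad1. Slc6a13, a GABA transporter, exceeded the limit in pools 1 and 3 but not 2, at 567.8, 385.9 and 695.0. Of 11 measured GABA receptor genes 2 were above background on all arrays. Gabrr1, a rho subunit of the receptor on bipolar cell terminals, read 586.4, 633.3 and 884.0, and Gabbr1, a subunit of the metabotropic receptor, read 2043.5, 1895.8 and 1918.9. The other 9 were above it on no array, among them Gabra2, Gabra3, Gabra6 and Gabrb1.

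In the glycine lists, Slc6a9 was joined by 3 genes of glycine breakdown above background on all arrays. Gldc, the decarboxylase of the glycine cleavage system, read 1367.1, 1093.7 and 736.9 in pools 1, 2 and 3, highest in pool 1 as Slc6a9 was. Gcsh, its carrier protein, read 622.5, 795.1 and 725.7, and Dld, a dehydrogenase shared with other complexes, read 1354.9, 2127.5 and 1202.4, so both were highest in pool 2. On the receptor side, Glrb, the beta subunit, read 928.8, 910.6 and 1142.2, and Gphn, the scaffold gephyrin, read 616.2, 623.1 and 494.4. Glra1, an alpha subunit, stood at 519.3, 676.9 and 209.3, the last under the limit.

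Markers of rarer amacrine transmitters were not above background throughout. None of the 5 measured cholinergic and dopaminergic genes was above it on all arrays. Th, the rate-limiting enzyme of dopamine synthesis, read 352.1, 498.9 and 452.7 in pools 1, 2 and 3 and exceeded the limit in pools 2 and 3. Ache, acetylcholinesterase, passed the limit in pools 1 and 3, at 565.5, 402.1 and 702.3. Slc18a3, the vesicular acetylcholine transporter, and Ddc, which completes dopamine synthesis, were under the limit in every pool.

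**Figure D4:**
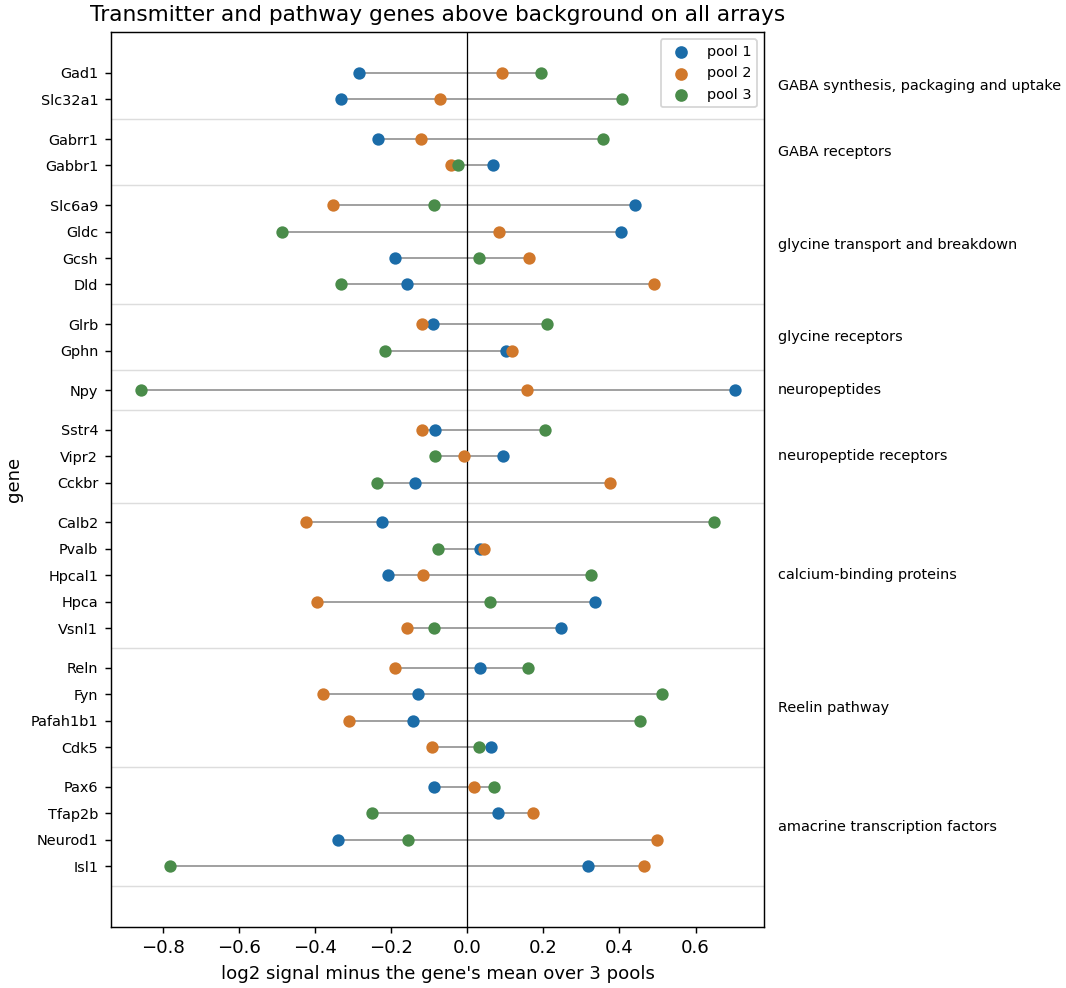
Deviation of log2 signal from each gene's own mean for the genes of the pathway lists that were above background on all arrays, grouped by list, with 1 point per pool. Npy, Calb2 and Isl1 have the widest spread, with pool 3 at an end of each line.

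Of 9 measured neuropeptide genes, Npy alone was above background on all arrays. Gal, galanin, had signals of 539.6, 473.3 and 568.5 on its brighter probe set, of which the one in pool 2 was under the limit. Its other probe set was under the limit in every pool. Sst, Vip and Tac1, peptides of other amacrine subtypes, were above the limit in no pool. The receptors of neuropeptide Y that were measured, Npy1r, Npy2r, Npy4r, Npy5r and Npy6r, were likewise above background in no pool. Of 16 measured peptide receptor genes 3 were above it on all arrays. These were Sstr4, a somatostatin receptor, at 851.0, 831.2 and 1039.7, Vipr2, a receptor of vasoactive intestinal peptide, at 619.3, 576.0 and 547.2, and Cckbr, a cholecystokinin receptor, at 861.3, 1228.0 and 802.7.

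Calb2 was among 5 of 9 measured calcium-binding genes above background on all arrays. Pvalb, parvalbumin, was nearly level at 1746.0, 1759.3 and 1617.7 in pools 1, 2 and 3 on its brighter probe set, while its other probe set was under background. Hpcal1, a neuronal calcium sensor, read 1494.6, 1594.2 and 2167.0 and was also highest in pool 3, with a range of 1.45-fold. The related sensors Hpca, at 1221.9, 736.9 and 1009.4, and Vsnl1, at 1143.3, 862.9 and 906.1, were highest in pool 1 instead. Calb1, calbindin, a marker of horizontal cells, read 264.5, 452.3 and 643.8 and exceeded background in pool 3 alone. S100b was above background in no pool.

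The Reelin pathway, in which Dab1 acts, had 4 of 12 measured genes above background on all arrays. Reln, the secreted ligand, read 2390.5, 2047.4 and 2610.1 in pools 1, 2 and 3 on its brighter probe set, and its other set was under background. Vldlr, a Reelin receptor, was above background in no pool on either probe set. Fyn, a kinase that phosphorylates Dab1, read 722.5, 607.2 and 1127.0, and Pafah1b1, which encodes the Lis1 protein, read 1667.0, 1482.4 and 2520.6. Both were highest in pool 3 and lowest in pool 2. Cdk5, a neuronal kinase, read 1459.8, 1312.7 and 1430.4. Of these 4, Cdk5 alone was highest in pool 1, as Dab1 102972_s_at was, by 1.11-fold over its lowest pool.

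Among transcription factors of amacrine cells, 4 of 10 measured genes were above background on all arrays. Pax6, which maintains amacrine identity, read 1633.4, 1757.0 and 1823.1 in pools 1, 2 and 3, a range of 1.12-fold. Tfap2b read 768.7, 818.7 and 610.6, and Neurod1, also active in photoreceptors, read 3245.1, 5805.7 and 3685.1. Tfap2a read 444.7, 408.4 and 372.7 on its brighter probe set, with pool 2 under the limit. Its other set read 499.6, 372.0 and 187.0, a range of 2.67-fold, and was above the limit in pool 1 alone. Isl1, which is made in cholinergic amacrine, bipolar and ganglion cells, read 1516.0, 1680.7 and 707.4, a range of 2.38-fold, and like Npy it was lowest in pool 3.

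The genes most like each member were sought among the other 2953 named genes above background on all arrays, by the Euclidean distance between log2 signals centred on the mean of the 3 pools. With 3 points many genes match closely by construction, and no shared role is implied. For Npy, 3 genes lay within a distance of 0.2, which is 0.10% of the genes compared. They were Ube2k, a ubiquitin-conjugating enzyme, at 1030.4, 766.0 and 380.2 in pools 1, 2 and 3 (distance 0.0995), Atp1b2, a subunit of the sodium pump, at 2507.8, 1632.0 and 741.0 (distance 0.14), and Sox4, a transcription factor of developing neurons, at 3130.6, 2375.1 and 1279.6 (distance 0.19). For Calb2, 23 genes or 0.78% lay within 0.2. The nearest were Reep6 at 3659.8, 3119.1 and 6408.3 (distance 0.046), Tkt, transketolase, at 1559.4, 1297.6 and 2724.1 (distance 0.055), and Gnb5, a G protein beta subunit, at 892.7, 831.0 and 1701.9 (distance 0.0685). Slc6a9 had 112 genes within 0.2, or 3.79%, with Cmtr1, Atf6b and Pigq nearest. Gad1 had 251, or 8.50%, with Dnaja3, Galt and Mxd4 nearest.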

How the data were processed

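Transcript signal was measured on 3 Affymetrix U74Av2 arrays, 1 for each pool of wild-type neural retina at postnatal day 10. The deposited table holds 1 linear intensity per probe set. The authors' software and scaling are not stated in the labels, and no detection calls were used. The trimmed means of the arrays (2% off each end) were 500.3, 500.2 and 500.3, within the 5% set for using intensities as deposited. Means this close are what a scaling of each array to a common trimmed mean gives. Such a scaling assumes that the trimmed mean, not the total signal, is the same in every pool.

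Probe sets were named from GEO's platform annotation, and for 10839 of them the current RefSeq symbol was taken by Entrez number. There were 10855 probe sets with 1 symbol, 396 with several and 1237 with none. Sets with several symbols or none stood for no named gene, but those that were not controls stayed in counts over all probe sets. The 66 control sets were left out of counts. Where a gene had more than 1 probe set, the brightest by mean stood for it. Values below 1 were set to 1 before log2. Background limits came from 81 probe sets of 66 genes typical of other tissues. Computation used Python 3.11.15 with pandas 2.3.3. The distance of the nearest-gene search and the percentile were tried on simulated data. The planted genes had a wider range than any member, so this checks the computation only.

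The members, the lists, the background genes and the rules were chosen with earlier results of these data known. The genes to name were the members, the first 4 measured genes of each pathway list, list genes above background with a range over 2-fold, and the 3 nearest genes of each member above background. Further list genes were named after their values were seen. Precision is limited by the number of arrays, and no test between groups was possible. Scaling, the background limit, a pseudocount and each pool left out were tried as alternatives.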

Additional observations from a re-analysis of the deposited data

How the results depend on the processing

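The 4 probe sets above background on all arrays remained 4 in number under every scaling tried and with each pool left out. These settings are no check of the count. The limit comes from the same array and moves with its scaling, and leaving a pool out can only keep or raise the count. With the limit at the 95th percentile the probe sets above background also remained 4. They became 5 with the limit at the 75th percentile or from plain _at probe sets. The count of these with a range over 2-fold, 2 as deposited, was 1 after quantile normalization (Calb2 at 0.92 on the log2 scale) and 1 relative to the other amacrine markers (Calb2 at 0.97), and it lay between 0 and 2 when 1 pool was left out, at 0 without pool 3 and 1 without pool 2. It was 3, with Dab1 102972_s_at added, at the 75th percentile limit and with the limit from plain sets. A range over 2 pools is smaller by construction. The range of Npy lay between 1.51 and 1.79 on the log2 scale under the 5 alternatives that kept all pools. The pseudocount, 1 of these 5, adds the same amount to every pool and cannot change their order. Gad1, Slc6a9, Calb2 and Npy kept their highest and lowest pool under all 5 alternatives, and Dab1 102972_s_at kept its highest pool in 5 of 6. The exception was its mean log2 signal with the set 161291_at, which is under background on all arrays; that mean was highest in pool 2. The pathway genes above background on all arrays numbered 27 as reported, 23 at the 95th percentile and 25 with plain _at sets alone. They numbered 28 to 32 with a pool left out, which can only keep or raise the count. The scaling to other amacrine markers and the limit from plain sets were chosen after seeing the data. Low signal limits Gad2 and Dab1: with a pseudocount of 50 the range of Gad2 was 0.79 on the log2 scale, against 2.35 without it.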
